A study of Drosophila melanogaster with 4 samples.

Results

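Histone variants replace the histones made during DNA replication, and histone chaperones carry histones to DNA and away from it. Of 10 genes of this kind chosen by name, 8 had a singly named probe, out of 11980 singly named genes and 13891 features on the arrays. These were Caf1-55, Caf1-105, Caf1-180, asf1, Nap1, His2Av, His4r and D1, each with 1 probe. No singly named probe was found for the histone H3.3 genes His3.3A and His3.3B, which are not analysed here. The rule takes genes by their symbol in the platform annotation and uses no measured value, but the names were listed, and Caf1-55 set against the rest, with earlier results of these data known.

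RNA of Drosophila melanogaster larvae carrying the invadolysin allele 4Y7 was compared with RNA of Canton S wild-type larvae on 4 two-colour arrays. Each array held 1 mutant and 1 wild-type sample. The dye on mutant RNA was Cy5 for replicates 1 and 4, and Cy3 for the other two. Invadolysin is a conserved zinc metalloprotease. Flies of both groups were kept at 25 degrees, and the labels give no larval age, no lesion and no statement of whether the mutant larvae carried 1 or 2 copies of the allele. Whether the libraries hold the labelled stage could not be read from markers, because the values are ratios and show no levels.

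A negative log2 ratio means a lower signal in the mutant than in the wild type. That direction rests on the wording of the titles, and it is likely rather than stated; were it the opposite, every sign, rank and "lower" would turn round. That the dye-swapped arrays had already been turned to a common direction is inferred from arrays of opposite dye orientation. These correlated over probes at a mean r of 0.217 (0.035 without replicate 1). Arrays of the same orientation correlated at 0.651 (replicates 2 and 3) and 0.213 (replicates 1 and 4), so the inference is weak. Had the dye-swapped arrays not been turned, the mean of Caf1-55 would be 0.05. None of the 8 genes would then pass the test (0 at an unadjusted p under 0.05, limma). The Invadolysin probe did not check the labels, since its position relative to the lesion is unknown. Its log2 ratios were -0.12, 0.11, 0.16 and 0.25 on replicates 1 to 4, near 0 and not of one sign.

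In flies, chromatin assembly factor 1 places H3 and H4 onto newly copied DNA and is built from the products of Caf1-180, Caf1-105 and Caf1-55, whose names give apparent masses of 180, 105 and 55 kDa. The Caf1-55 protein, a WD-repeat histone binder, also belongs to the NURF remodeller, Polycomb repressive complex 2, NuRD, the Sin3 deacetylase complex and the dREAM repressor. The asf1 product hands H3 and H4 to the assembly factor, and the Nap1 product is a chaperone of H2A and H2B. His2Av encodes the fly H2A variant that serves in both transcription and DNA damage signalling, and His4r encodes H4 from a gene outside the replication-dependent cluster. D1 is neither a variant nor a chaperone: its product is an AT-hook protein that binds satellite DNA.

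Caf1-55 was lower in the mutant on every array, and among the 8 genes no other passed the test. Its log2 ratios were -1.71, -1.34, -1.75 and -1.17 on replicates 1 to 4. All 4 arrays lay far below 0 and within a narrow range, whichever dye the mutant carried. The mean was -1.49 ± 0.29 (SD, n = 4), a 2.81-fold difference in signal, with a limma adjusted p of 0.0401 (95% interval -1.93 to -1.05). In RNA from larvae, fewer cells with a transcript and less transcript per cell cannot be told apart. Over all features 0.821% were called in either direction and 0.425% were called lower. Since the call of Caf1-55 was known when it was singled out, its count of 1 in 8 is given as a description only. By mean log2 ratio Caf1-55 stood 134th from the lowest of the 11980 named genes (134th from the highest, were the direction the opposite), and by p it was 46th of all features.

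The call was close to the threshold and was lost whenever 1 array was left out, while the log2 ratio changed little. Without replicates 1, 2, 3 and 4 the log2 ratio of Caf1-55 was -1.42, -1.54, -1.40 and -1.60, and the limma adjusted p was 0.217, 0.144, 0.123 and 0.0506. Where mutant RNA carried Cy5 the mean was -1.44, and where it carried Cy3 the mean was -1.54. Both dye orientations thus gave nearly the same ratio. With a separate dye term the limma adjusted p was 0.0619. The log2 ratio could not change, because the dyes were balanced over the arrays.

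**Figure D1:**
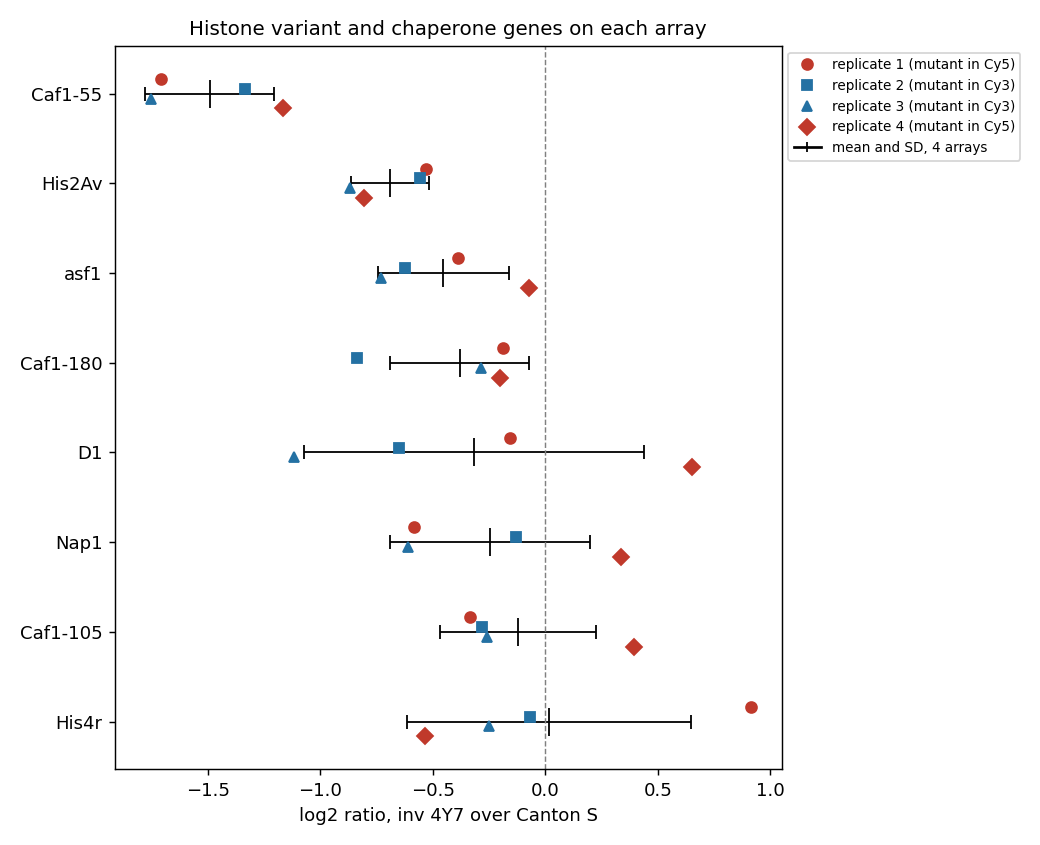
Log2 ratios of mutant over wild type (x axis) for the 8 measured genes (rows, lowest mean at the top). Symbols are the 4 arrays, red where mutant RNA carried Cy5 and blue where it carried Cy3, and the black mark with whiskers is the mean and SD. All 4 arrays of Caf1-55 lie between -1.75 and -1.17, below every value of the other 7 genes.

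The partners of Caf1-55 in chromatin assembly factor 1 lay nearer to 0. The log2 ratios of Caf1-180, the large subunit, were -0.19, -0.84, -0.29 and -0.20 on replicates 1 to 4. Every array was below 0, and replicate 2 stood apart from the other 3. The mean was -0.38 ± 0.31 (SD, n = 4; limma adjusted p = 0.323), with a 95% interval of -0.83 to 0.07. Caf1-105, the middle subunit, had log2 ratios of -0.34, -0.28, -0.26 and 0.40. Here replicate 4 was above 0 and the other 3 were close together below it. The mean of Caf1-105 was -0.12 ± 0.35 (SD, n = 4, limma adjusted p = 0.758), with an interval of -0.59 to 0.35.

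Set against its partners within each array, Caf1-55 had the lower log2 ratio every time. The difference of log2 ratios, Caf1-55 minus Caf1-105, was -1.37, -1.05, -1.49 and -1.56 on replicates 1 to 4, with a mean of -1.37 ± 0.22 (SD, n = 4). Caf1-55 minus Caf1-180 was -1.52, -0.50, -1.47 and -0.96, with a mean of -1.11 ± 0.48. The smallest gap was that of replicate 2, the array on which Caf1-180 was also low. Caf1-55 minus asf1 averaged -1.04 ± 0.25 and Caf1-55 minus Nap1 averaged -1.24 ± 0.17. All 4 differences were below 0 on 4 of 4 arrays. The exact two-sided sign-flip permutation test gave p = 0.13 for each (2 of 16 sign assignments as far from 0, and the same after Benjamini-Hochberg adjustment over the 4), the smallest value that 4 arrays allow, so this test could not pass a threshold of 0.05. Because all 4 differences hold the same Caf1-55 values and Caf1-55 was picked for its fall, they are not separate pieces of evidence.

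**Figure D2:**
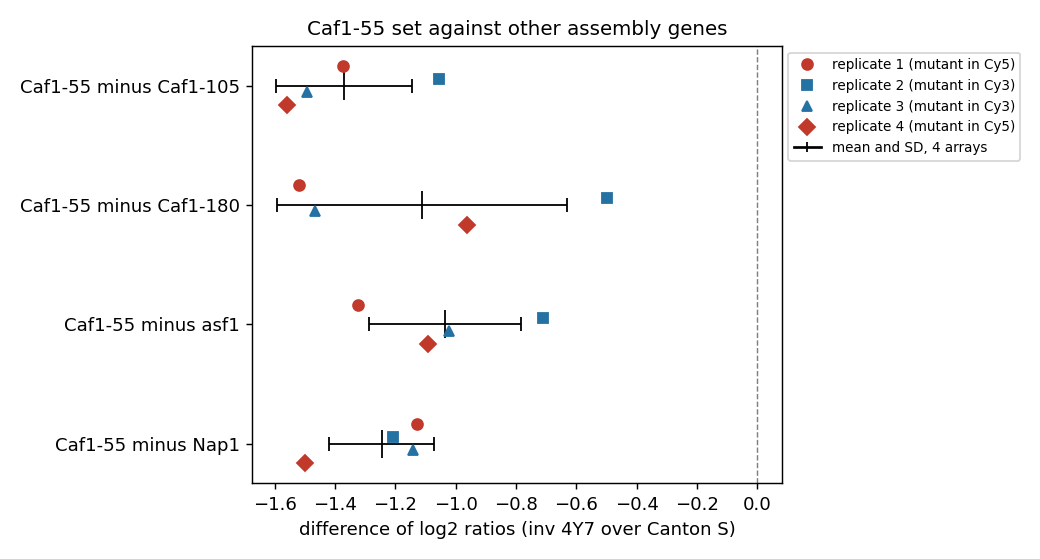
Differences of log2 ratios, Caf1-55 minus another assembly gene (x axis), on each of the 4 arrays, with the mean and SD in black. Every point lies below 0, from -1.56 to -0.50.

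Of the other chaperones, asf1 was lower on every array and Nap1 on 3 of 4. The log2 ratios of asf1 were -0.39, -0.63, -0.73 and -0.07 on replicates 1 to 4. The lower pair were the arrays with Cy3-labelled mutant RNA, at a mean of -0.68, and the Cy5 pair averaged -0.23. Over all arrays the mean was -0.45 ± 0.29 (SD, n = 4), and it did not pass (limma adjusted p = 0.248, interval -0.89 to -0.01). Nap1 had log2 ratios of -0.58, -0.13, -0.61 and 0.34, with replicate 4 alone above 0. Its mean of -0.25 ± 0.45 (SD, n = 4) was smaller than the spread between arrays (limma adjusted p = 0.56).

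Between the histone genes, His2Av was the lower and the steadier. Its log2 ratios were -0.53, -0.56, -0.87 and -0.81 on replicates 1 to 4. The 4 arrays lay close together and below 0, with means of -0.67 for Cy5-labelled and -0.71 for Cy3-labelled mutant RNA. The mean of -0.69 ± 0.17 (SD, n = 4) is a 1.61-fold difference, but the limma adjusted p was 0.102 over all features (unadjusted 0.00485, interval -1.08 to -0.30). His4r had log2 ratios of 0.91, -0.07, -0.25 and -0.54, so replicate 1 went against the other 3. Its mean of 0.01 ± 0.63 (SD, n = 4; limma adjusted p = 0.981) had an interval of -0.63 to 0.66, which leaves room for changes of either sign.

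D1 varied most among the 8 genes. Its log2 ratios were -0.16, -0.65, -1.12 and 0.65 on replicates 1 to 4. The mean was -0.88 where mutant RNA carried Cy3 and 0.25 where it carried Cy5. The Cy5 arrays differed from each other in sign, and replicate 4 alone was above 0. The mean of -0.32 ± 0.76 (SD, n = 4) did not pass (limma adjusted p = 0.593).

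In order of mean log2 ratio the genes ran Caf1-55, His2Av, asf1, Caf1-180, D1, Nap1, Caf1-105 and His4r. The arrays of Caf1-55 and His2Av did not overlap, while those of His2Av and asf1 did. From asf1 to His4r each neighbour in this order differed by less than either gene's SD. When arrays were weighted by their agreement with the fit, 5 of the 8 genes passed, namely Caf1-55, His2Av, asf1, Caf1-180 and D1, all lower. With those weights 6079 of the 13891 features passed too. Most of the weight lay on replicate 2, since the weights were 0.52, 5.47, 1.51 and 0.23 on replicates 1 to 4. Of the 8 genes, 7 had a mean below 0, against 48.5% of all features. On all 4 arrays, 4 of the 8 (Caf1-55, Caf1-180, asf1 and His2Av) were below 0, against 14.9% of all features. An unadjusted limma p under 0.05 was found for 3 of the 8, against 19.2% of all features. The median of the 8 means was -0.35 (-0.32 without Caf1-55), beside 0.02 over all features. By array the median of the 8 was -0.36, -0.59, -0.67 and -0.14 on replicates 1 to 4, so it was nearest 0 on replicate 4, which correlated with the other arrays over probes at r between 0.031 and 0.213.

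Among genes of the other complexes that hold Caf1-55, 0 measured members passed limma (0.821% of all features). Only 1, Nurf-38, had an unadjusted p under 0.05 (19.2% of all features). Of the 3 measured genes of NURF and related ISWI remodellers, Nurf-38, a pyrophosphatase subunit, was at -0.81 ± 0.40 (SD, n = 4; limma adjusted p = 0.118). The ATPase gene Iswi was at -0.06 ± 0.19 and E(bx), the largest subunit, at 0.09 ± 0.38. Among 8 genes of Polycomb repressive complex 2 and its partners the median log2 ratio was -0.18, with the lowest at -0.37 and the highest at 0.22. The smallest p in that list belonged to Scm, a Polycomb group gene, at -0.33 ± 0.42 (limma adjusted p = 0.438), and to jing, a zinc-finger cofactor, at 0.22 ± 0.25 (limma adjusted p = 0.528). In 4 genes of NuRD the median was -0.12, with the deacetylase gene HDAC1 at -0.20 ± 0.30 and the remodeller gene Mi-2 at -0.15 ± 0.46. In 10 genes of dREAM it was -0.10, with E2f1, an activator of S-phase genes placed in this list as a family member, at -0.40 ± 0.35 and the retinoblastoma gene Rbf at -0.28 ± 0.32. In 4 genes of the Sin3 list it was 0.06, with Sap30 at -0.37 ± 0.60.

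**Figure D3:**
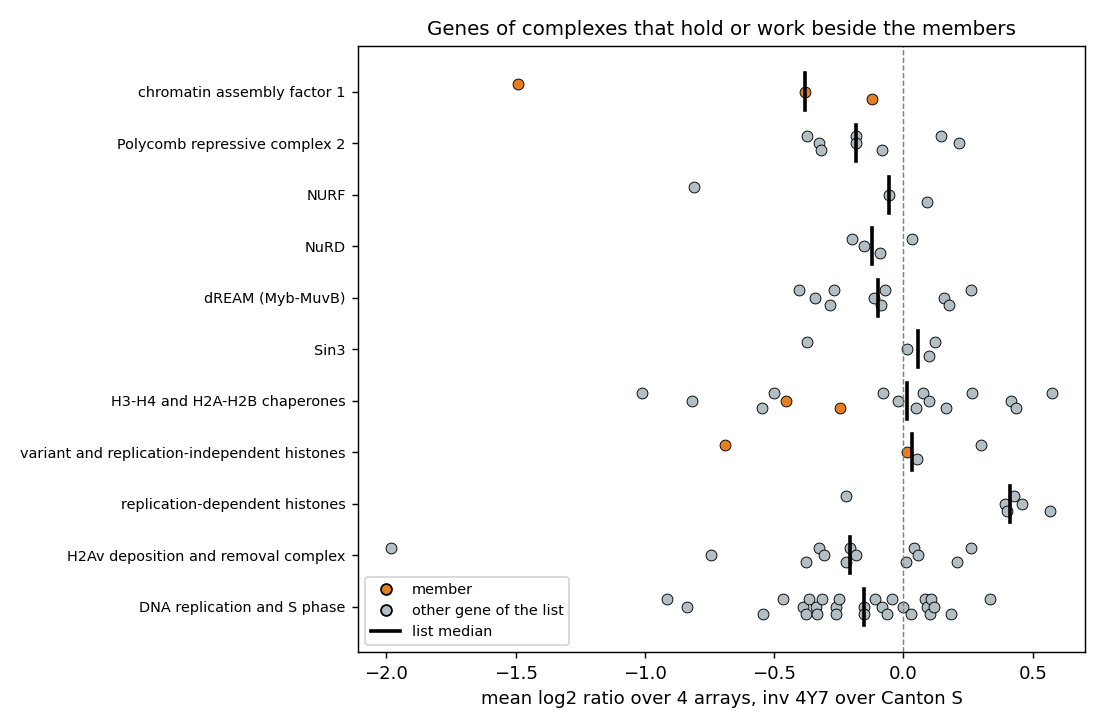
Mean log2 ratio over the 4 arrays, mutant over wild type (x axis), for each measured gene of the lists (rows). The lists are those of the complexes and histone groups named beside each row, without the satellite-binding list that holds D1. Orange points are the genes described, grey points are other genes, and black bars are list medians. Caf1-55 stands at -1.49 in the top row, while the medians of the other complexes that hold it run from -0.18 to 0.06.

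Among 16 measured chaperones of both histone pairs, asf1 and Nap1 included, 0 rose and 0 fell in limma, and 6 had an unadjusted p under 0.05 (19.2% of all features). Their median log2 ratio was 0.01, and 8 of the 16 were below 0 (48.5% of all features). The nucleoplasmin-family genes Nph and Nlp, whose products chaperone histones, were lowest, at -1.01 ± 0.47 (SD, n = 4; limma adjusted p = 0.0916) and -0.82 ± 0.49 (limma adjusted p = 0.139). Nph had log2 ratios of -1.32, -0.91, -1.43 and -0.39 on replicates 1 to 4, below 0 on each array. Among the 6 chaperones with an unadjusted p under 0.05, cal1 was above 0 on each array and the rest had means below 0. The mean of cal1 was 0.42 ± 0.15 (limma adjusted p = 0.237). The highest mean of the list was that of mil, at 0.58 ± 0.69 (limma adjusted p = 0.325). Of the 13 measured genes of the Tip60 and Domino complexes, which acetylate histones and exchange H2Av, 0 passed limma (0.821% of all features). An unadjusted p under 0.05 was found for 0 of the 13 (19.2% of all features). Their median was -0.21, with the smallest p for YL-1 at -0.74 ± 0.84 (limma adjusted p = 0.282) and for dom, the exchange ATPase gene, at -0.38 ± 0.27 (limma adjusted p = 0.308). The lowest mean in that list was that of Eaf6, at -1.98 ± 2.73, named after its value was seen, with a spread between arrays larger than the mean.

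Of 6 replication-dependent histone genes 0 passed limma (0.821% of all features). An unadjusted p under 0.05 was found for 2 of them (19.2% of all features), and 1 had a mean below 0 (48.5% of all features), with a median log2 ratio of 0.41. His4:CG31611, an H4 gene of the cluster, was at 0.58, 0.33, 0.63 and 0.73 on replicates 1 to 4, above 0 on all of them. Its mean was 0.57 ± 0.17 (SD, n = 4; limma adjusted p = 0.147). The linker histone gene His1:CG31617 was at 0.46 ± 0.29 (limma adjusted p = 0.246). These genes are repeated in near-identical copies, so a probe stands for many copies. The labels state priming with anchored oligo(dT), and most transcripts of such genes lack a poly(A) tail; the part of this in their values was not tested. The variant histone genes cid, the centromeric H3, and BigH1, an embryonic linker histone, were at 0.05 ± 0.62 and 0.30 ± 0.41.

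Of 28 measured DNA replication genes 0 passed limma, and 4 had an unadjusted p under 0.05, a smaller share than the 19.2% of all features. A mean below 0 was found for 20 of the 28 (48.5% of all features), and the median log2 ratio was -0.15. PCNA, the sliding clamp to which chromatin assembly factor 1 binds, was at -0.92 ± 0.30 (SD, n = 4; limma adjusted p = 0.0777), and the helicase gene Mcm3 at -0.84 ± 0.45 (limma adjusted p = 0.1245). The list's median was -0.19, -0.30, -0.35 and 0.15 on replicates 1 to 4, again highest on replicate 4. In 18 imaginal disc markers 0 passed limma (0.821% of all features) and 2 had an unadjusted p under 0.05 (19.2% of all features). The median was 0.02, with 8 of the 18 below 0 (48.5% of all features). The 2 of smallest p, Ance at -0.76 ± 0.53 and hh at -0.82 ± 0.78, were below 0, and nub, the highest, was at 0.64 ± 0.78. In 9 brain and neuroblast markers 0 passed (1 by unadjusted p, beside 19.2% of all features) and the median was 0.15, with nSyb at 0.41 ± 0.13. In 5 fat body markers 0 passed (0 by unadjusted p, beside 19.2% of all features). Their median swung between arrays, at 1.06, 0.60, -2.02 and 0.002 on replicates 1 to 4. The part of tissue make-up in the difference of Caf1-55 was not tested. For the satellite-binding and heterochromatin list of D1, 0 of 4 passed (0 by unadjusted p, beside 19.2% of all features). The median was -0.15, with D1 itself holding the smallest p.

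The genes whose 4 log2 ratios were closest to those of Caf1-55 were not among the other members. By Euclidean distance over the 4 arrays the nearest of the 11980 named genes were CG16922 (distance 0.291), Ahcy (0.385), which encodes adenosylhomocysteinase, and CG32241 (0.433). Their mean log2 ratios were -1.38 ± 0.30, -1.30 ± 0.31 and -1.57 ± 0.24. Of the other 7 genes described, His2Av was the nearest, at a distance of 1.71, which placed it 541st. Such a distance depends largely on the mean log2 ratio, and Caf1-55 was picked for its fall. That no other member lay near Caf1-55 was thus largely set in advance.

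**Figure D4:**
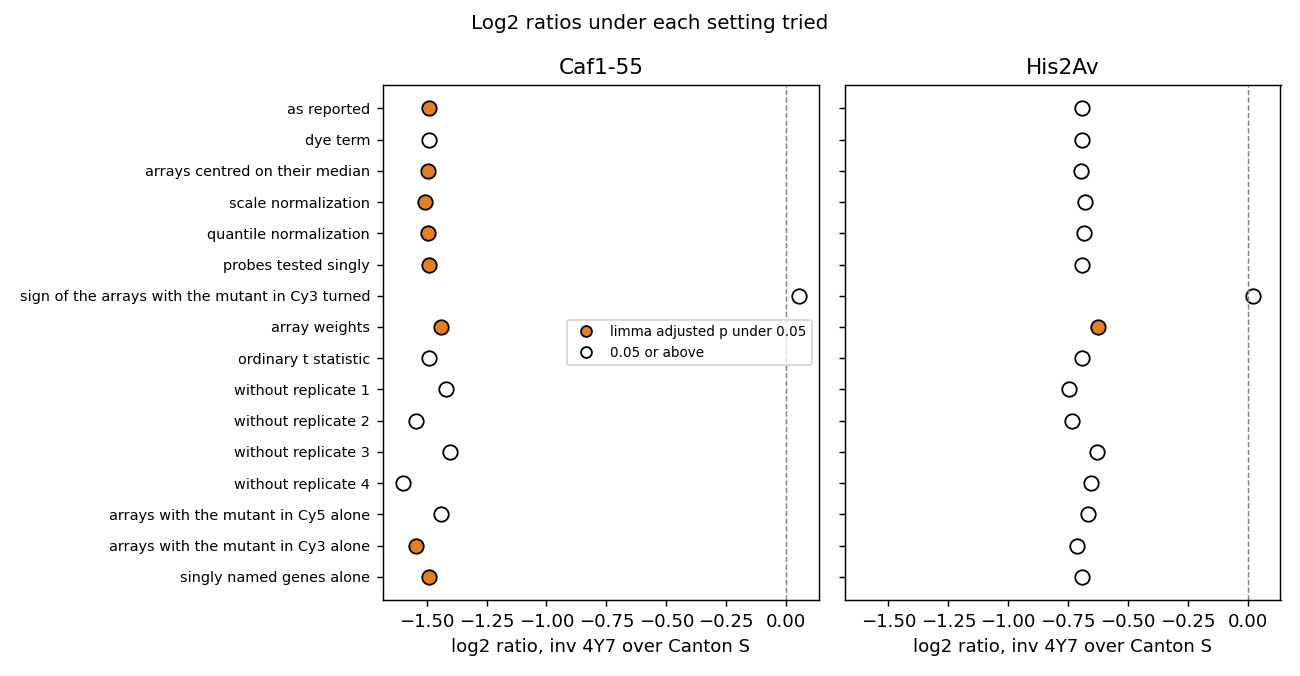
Log2 ratio of mutant over wild type (x axis) for Caf1-55 (left) and His2Av (right) under each setting tried (rows). Filled points have a limma adjusted p under 0.05 (an unmoderated t statistic in that row). With the sign of the arrays with the mutant in Cy3 turned, Caf1-55 is at 0.05. Under every other setting it stays between -1.60 and -1.40. The dye term, ordinary t statistic, single probes and named genes alone could not move its log2 ratio.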

How the data were processed

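The deposited file gives 1 log ratio per probe and array (14569 probes), taken as log2 because of its range. Not given in the sources used here are the base and direction of these log2 values and how the authors normalized them within arrays. No brightness was used, so background and saturation are unknown, and precision is limited by having 4 arrays. Column medians were within 0.013 of 0. Of the probes, 12658 had 1 symbol, 96 several and 1815 none in the platform annotation, which can be old. Probes of 1 gene were averaged per array. A limma fit (version 3.58.1, R 4.3.3, lmFit and eBayes) set all 13891 features against 0, two-sided, at a threshold of 0.05 after Benjamini-Hochberg adjustment over all features. Its prior had 3.27 degrees of freedom. The fit was tested on simulated data. Names and neighbours came from a RefSeq gene table (assembly Release 6 plus ISO1 MT), whose coordinates served only to order neighbours and are not printed. Dye orientation was the known batch. The series calls the arrays biological replicates.

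The members and lists were chosen with earlier results of these data known. Named are the members, Invadolysin, the 1 or 2 genes of smallest p in each list and the 3 genes nearest to Caf1-55. Iswi, E(bx), cal1, mil, Eaf6, cid, BigH1, nub and chromosomal neighbours were named after their values were seen. Alternatives covered dye, centring, scale, quantiles, single probes, direction, array weights, test, features and arrays left out. Figures were drawn with matplotlib 3.10.9.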

Additional observations from a re-analysis of the deposited data

Results flagged for a closer look

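On 1 array each, Caf1-105 and Caf1-180 stood far from the other 3. For Caf1-105 this was replicate 4, at a log2 ratio of 0.40 (gap to the nearest array 0.897 of the whole range). For Caf1-180 it was replicate 2, at -0.84 (gap 0.851 of the range). Both gaps are past the 95% critical value of Dixon's test for 4 samples, and chance flags about 1 in 20 groups. Of the 9 genes examined this way (the 8 and Invadolysin), these 2 were past it.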

How the results depend on the processing

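Centring, scale and quantile normalization, single probes and named genes alone kept the call of Caf1-55 and, for all features, a count within 1.5 times 114. Caf1-55 has 1 probe, so single probes and named genes alone could not move its log2 ratio. They changed only the features over which p was moderated and adjusted. Column medians were already near 0, so centring could move it little. Under limma with a dye term, 0 features (3537 by unadjusted p under 0.05) and 0 of the 8 genes were called, with Caf1-55 at -1.49. The ordinary t statistic called 1 feature and 0 of the 8 genes (adjusted p of Caf1-55 0.135, log2 -1.49). Array weights ran from 0.232 on replicate 4 to 5.47 on replicate 2, which held most of the weight. They gave 6079 features and 5 of the 8 genes. The limma adjusted p was then 0.0118 for Caf1-180, 0.00631 for His2Av, 0.00642 for asf1 and 0.0178 for D1. The arrays with the mutant in Cy5 alone gave 4 features and 0 of the 8, with Caf1-55 at -1.44 (limma adjusted p = 0.254), and those with it in Cy3 alone gave 2573 and 2, Caf1-55 and asf1. Leaving out 1 array gave 0 to 21 features and 0 of the 8 genes each time, with Caf1-55 between -1.60 and -1.40. With the sign of the arrays with the mutant in Cy3 turned, 0 features (1053 by unadjusted p under 0.05) and 0 of the 8 genes passed limma. The log2 ratios were then 0.0535 for Caf1-55, 0.15 for Caf1-105, 0.18 for Caf1-180, 0.0235 for His2Av, 0.22 for asf1, 0.12 for Nap1 and 0.57 for D1. Other changes of sign were Caf1-105 at 0.0295 and D1 at 0.25 in the Cy5 arrays alone, and His4r at -0.16 in the Cy3 arrays alone, -0.0511 with array weights and -0.29 without replicate 1 (up to 0.199 without the others). Of these, none was past the threshold. The causes were not tested. The 4 mean differences with Caf1-55 ran from -1.48 to -0.94 with 1 array left out or under scale or quantile normalization. With the Cy3 arrays turned they were close to 0, at -0.097 for Caf1-105, -0.129 for Caf1-180, -0.17 for asf1 and -0.0697 for Nap1 (exact permutation p from 0.75 to 1). Each array already holds 1 mutant and 1 wild-type sample as a ratio, so the groups were compared within arrays by design.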

Other observations

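On chromosome arm 3R, 0 of the 5 measured genes among the 3 on either side of Caf1-55 passed limma (0.821% of all features). Invadolysin, the mutated gene, also lies on 3R, as do His4r and D1. For genes of this arm, differences linked to the mutant chromosome and effects of the allele cannot be told apart by this design. An unadjusted p under 0.05 was found for 2 of the 5 (19.2% of all features). Their log2 ratios ran from 0.42 for CG31344 to -1.14 for mRpS10, the nearest to Caf1-55 in value. On one side, CG31344, Polr2G and CG12241, from near to far, were at log2 ratios of 0.42 ± 0.59, -0.16 ± 0.37 and -0.04 ± 0.13 (SD, n = 4; limma adjusted p = 0.41, 0.69 and 0.908). On the other side, Art3, an arginine methyltransferase family gene, was at -0.51 ± 0.37 and the mitochondrial ribosomal protein gene mRpS10 at -1.14 ± 0.24 (limma adjusted p = 0.243 and 0.0543). Around His2Av, also on 3R, ball, IntS12 and Lerp on one side were at 0.04 ± 0.32, -0.39 ± 0.50 and 0.09 ± 0.64, and SPARC and Rb97D on the other were at 0.04 ± 0.17 and -0.04 ± 0.42. Which genes to look around was decided after the values were seen, and every measured gene within 3 places is given.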
